A study of Gallus gallus with 48 samples.

Results

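Collagen genes were read in retina and retinal pigment epithelium from chicks that wore a spectacle lens over 1 eye. Members were all genes whose symbol in the platform annotation has the form COL, a type number, A and a chain number, such as COL1A1. The rule found 41 genes among 13009 named genes on the array, covering 28 collagen types. Each gene was read by 1 of its probe sets, the one with the highest mean over all eyes. The 41 genes were divided into 9 fibrillar genes (types I, II, III, V, XI, XXIV and XXVII), 8 basement membrane genes (types IV, XV and XVIII) and 24 genes of other types.

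The series held 48 Affymetrix Chicken arrays, 1 for each eye of 24 White Leghorn chicks. Lenses were fitted at 1 week of age, and all birds lived in a cycle with 12 hours of light. The 4 conditions were a -15 D lens for 6 hours, a +15 D lens for 6 hours, a -15 D lens for 3 days and a +15 D lens for 3 days, where D stands for diopter. Each had 6 birds, with 6 lens eyes and 6 control eyes, and the control eye was the other eye of the same bird, so a control eye is not the eye of an untreated animal. A -15 D lens places the image behind the retina and a +15 D lens places it in front. The comparisons ask whether either lens alters gene expression in the back of the eye within these times.

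Collagens are secreted proteins of 3 chains wound into a helix. Fibrillar collagens line up into fibrils: types I and III build the tough coats of tendon, skin and sclera, type II builds cartilage and the vitreous gel, and types V and XI sit inside such fibrils and limit their width. Type IV forms the sheet-like network of basement membranes, which in the eye underlie vessels and pigment epithelium and form part of the inner limiting membrane. Other types coat fibrils, form beaded filaments or hexagonal nets, anchor epithelia or span the cell membrane. Collagen turnover in the sclera is known to follow lens wear in chicks, but sclera and choroid are not the tissue labelled here.

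The deposited values were log2 signals per probe set, and a difference of 1 is a doubling of signal. A mean of 4.50, the 95th percentile of 541 probe sets for viral sequences, served as background. Array medians lay between 6.38 and 6.50, and the correlation of any pair of arrays between 0.953 and 0.997. Photoreceptor ARR3, Müller glia GLUL and pigment epithelium RPE65 were above background in all 24 lens eyes and all 24 control eyes. Summed by its mean, a list of choroid and sclera fibroblast markers ran from 5.31 to 8.10 in lens eyes and from 5.12 to 7.25 in control eyes. A list of vessel and smooth muscle markers ran from 6.29 to 9.24 in lens eyes and from 6.17 to 8.51 in control eyes. The lens eye of bird 3 in the -15 D, 6 hours condition held the highest value of both lists. Striated muscle markers averaged 9.65 and 10.4 in the lens eyes of birds 5 and 6 of the -15 D, 3 days condition, and at most 6.04 in any control eye. Lens fibre CRYAA was above background in 0 of 24 lens eyes and 5 of 24 control eyes.

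Of the 41 collagens, all but COL6A6 had a mean above background. Levels of different probe sets are not on 1 scale, so the means that follow describe each gene and do not rank them. Among fibrillar genes the mean over 48 eyes was 7.61 for COL1A1 and 7.33 for COL1A2, the chains of type I, and 9.57 for COL3A1, the chain of type III. It was 11.24 for COL2A1 (type II), 10.09 for COL5A1 and 10.67 for COL5A2 (type V) and 9.91 for COL11A1 (type XI). COL24A1 averaged 10.48 and COL27A1 5.73. Among basement membrane genes the mean was 6.75 for COL4A1 and 8.03 for COL4A2, the chains of the widespread type IV network. It was 5.42 for COL4A3, 6.40 for COL4A4, 8.71 for COL4A5 and 5.80 for COL4A6, which form the more restricted type IV networks. COL15A1 averaged 5.22 and COL18A1, whose protein is the source of endostatin, 9.61.

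Among the other types, the type VI chains, which form beaded microfilaments, averaged 10.50 for COL6A1, 6.85 for COL6A2, 7.01 for COL6A3 and 3.03 for COL6A6. The type IX chains, which coat type II fibrils, averaged 8.63 for COL9A1, 5.59 for COL9A2 and 10.40 for COL9A3. Further fibril-associated collagens averaged 8.82 for COL12A1, 8.03 for COL14A1, 6.91 for COL16A1, 7.35 for COL19A1, 7.37 for COL20A1, 5.47 for COL21A1 and 7.65 for COL22A1. The short-chain network collagens averaged 9.01 for COL8A1, 7.23 for COL8A2 and 5.23 for COL10A1. Membrane-spanning collagens averaged 6.85 for COL13A1, 6.66 for COL17A1, 8.91 for COL23A1 and 5.54 for COL25A1. COL7A1, the anchoring fibril chain, averaged 6.01, COL26A1 4.60 and COL28A1 4.51.

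Collagen genes differed from each other in how far their level varied between eyes. COL3A1 had an SD of 1.97 over the 48 eyes, COL4A1 of 1.88, COL1A2 of 1.81, COL4A2 of 1.70 and COL1A1 of 1.63. COL6A2 (1.09), COL14A1 (1.04) and COL6A3 (1.03) followed. At the steady end stood COL16A1 (0.13), COL25A1 (0.14), COL28A1 (0.14) and COL11A1 (0.15), with COL5A1 at 0.16, COL24A1 at 0.17 and COL2A1 at 0.19. An SD above 1 was found in 8 of 41 collagens (19.5%) and in 145 of 13009 genes (1.11%), and the median SD was 0.304 over collagens and 0.198 over all genes. The 8 comprised 3 of 9 fibrillar genes, 2 of 8 basement membrane genes and 3 of 24 others. The threshold of 1 was set after the values were seen: COL6A3 lay just inside it, and COL8A1, with 0.72, was the next below. The spread of all 48 eyes is a description and was not tested.

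**Figure D1:**
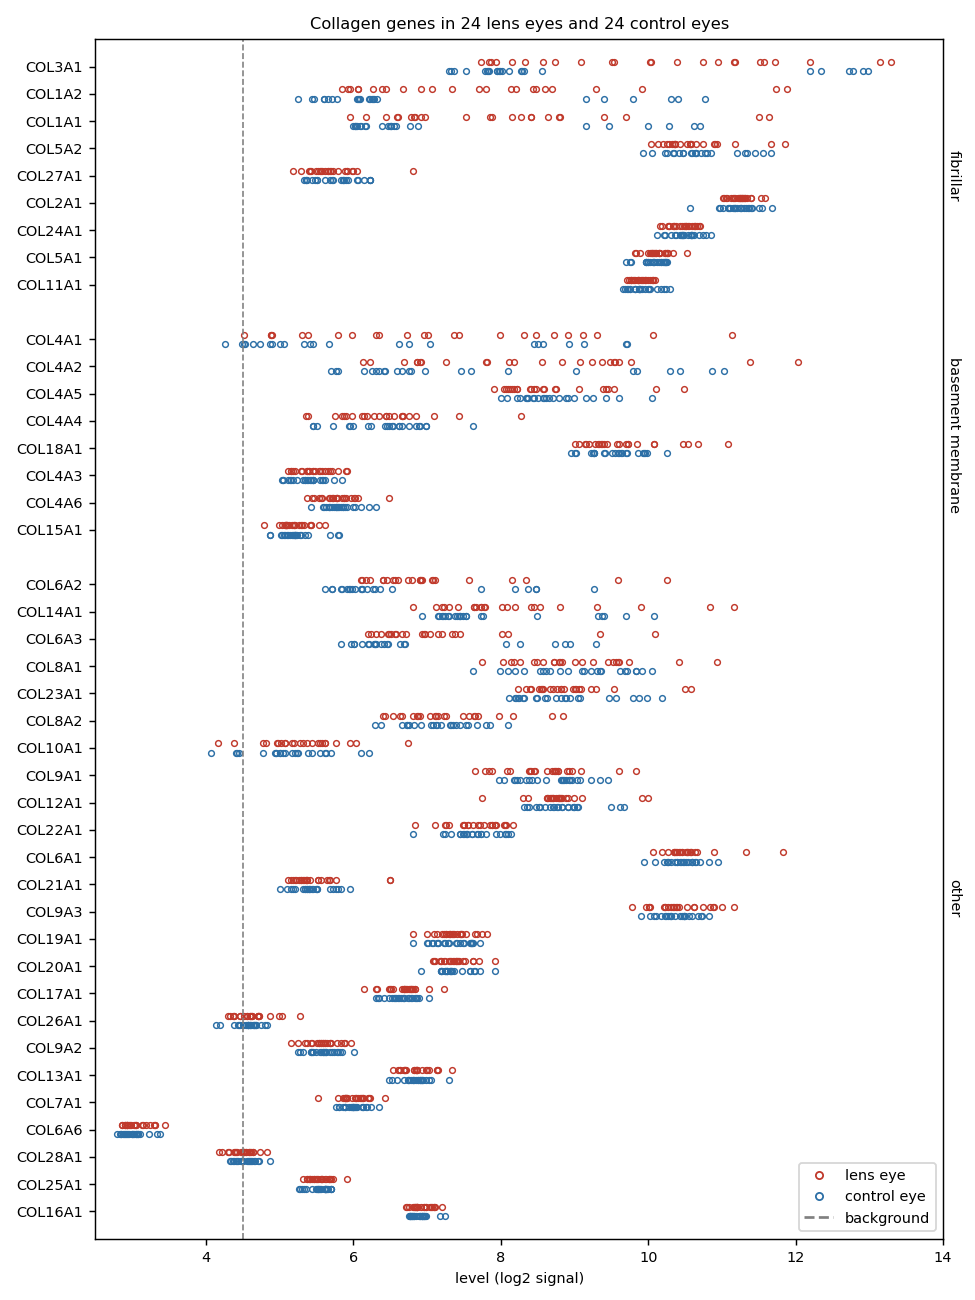
Log2 signal (x axis) of the 41 collagen genes (rows, by class) in each of 24 lens eyes (red, upper of each pair of rows) and 24 control eyes (blue, lower), with the background of 4.50 as a dashed line. COL3A1, COL4A1, COL1A2, COL4A2 and COL1A1 run over several log2 units in both kinds of eye, while COL2A1, COL11A1, COL24A1 and COL5A1 stay within a narrow band.

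COL1A1 showed the pattern eye by eye. In the -15 D, 6 hours condition its log2 level in birds 1 to 6 was 8.27, 6.17, 11.64, 9.69, 6.44 and 6.79 in lens eyes, and 6.02, 6.05, 6.02, 6.16, 9.16 and 6.11 in control eyes. In the +15 D, 6 hours condition it was 9.40, 5.96, 8.63, 7.85, 6.60 and 6.82 in lens eyes, and 9.99, 10.28, 6.03, 6.00, 6.52 and 6.77 in control eyes. Most control eyes thus lay near 6 and a few near 10, and lens and control eyes overlapped. In the -15 D, 3 days condition it was 8.80, 7.88, 6.59, 6.92, 8.15 and 8.80 in lens eyes, and 9.47, 6.09, 6.17, 6.39, 6.47 and 6.58 in control eyes. In the +15 D, 3 days condition it was 11.50, 6.97, 7.53, 6.84, 8.40 and 8.41 in lens eyes, and 6.55, 6.87, 6.49, 10.62, 10.70 and 6.51 in control eyes. Every condition held at least 1 control eye above 9 log2.

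Between 6.87 and 9.16 no control eye had a COL1A1 value, a gap of 2.29 log2 units with 18 control eyes below it and 6 above. Of the lens eyes, 8 lay at or below the lower edge of that gap, 12 inside it and 4 at or above its upper edge. The gap was found from the control values themselves, so the count of lens eyes inside it is a description. Over all 48 eyes COL1A1 covered a 51.4-fold range, COL1A2 a 99.0-fold range and COL3A1 a 63.5-fold range of signal. COL2A1 covered a 2.17-fold range. Of these, COL1A1, COL1A2 and COL3A1 had 2 lens eyes above every control eye and no control eye above every lens eye, while COL2A1 had 0 lens eyes above every control eye. COL9A3 had 5 such lens eyes, and COL11A1 had 5 control eyes above every lens eye. Such eyes were not counted over all genes, so nothing about these genes is read from the counts.

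COL3A1 followed the same eyes. In the -15 D, 6 hours condition its log2 level was 11.16, 7.93, 13.29, 12.20, 7.87 and 7.84 in lens eyes of birds 1 to 6, and 7.33, 7.97, 7.37, 8.31, 12.19 and 7.30 in control eyes. In the +15 D, 3 days condition it was 13.15, 8.15, 10.40, 8.74, 10.95 and 10.75 in lens eyes, and 8.29, 7.78, 7.81, 12.98, 12.72 and 7.99 in control eyes. The high eyes were those high in COL1A1, and both kinds of eye were among them. The 6 control eyes with the most COL1A1 were also the 6 with the most COL1A2, COL3A1, COL4A1, COL4A2, COL6A2, COL6A3, COL14A1, COL5A2, COL21A1 and COL23A1. None of them was among the top 6 for COL2A1 or COL19A1. Shared eyes were not counted over all genes, so none of this is read as particular to collagens. For COL23A1 it holds for the brightest probe set, with a mean of 8.91. Another, with a mean of 8.69, had an SD of 0.19 and r = -0.23 with it over the 48 eyes.

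COL4A1, a chain of the network shared by vessel and epithelial basement membranes, had levels from 4.26 to 11.1. In the -15 D, 6 hours condition it read 6.96, 5.79, 11.14, 8.32, 4.52 and 4.88 in lens eyes, and 5.41, 6.62, 4.49, 4.87, 8.51 and 7.04 in control eyes. In the +15 D, 6 hours condition it read 7.99, 9.31, 7.44, 8.72, 5.39 and 5.30 in lens eyes, and 9.71, 9.12, 4.51, 5.34, 5.06 and 5.01 in control eyes. High and low eyes again occurred on both sides. In the -15 D, 3 days condition it read 7.37, 8.91, 4.88, 9.12, 5.99 and 7.02 in lens eyes, and 8.57, 4.53, 4.26, 8.45, 4.90 and 4.73 in control eyes. In the +15 D, 3 days condition it read 10.06, 8.48, 6.35, 4.89, 6.72 and 6.30 in lens eyes, and 5.46, 4.63, 5.67, 9.70, 8.92 and 6.75 in control eyes. COL4A2, its partner in the trimer, covered an 80.2-fold range, from 5.70 to 12.0.

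Type IV and type I did not always go together. COL4A1 had its own empty stretch in control eyes, from 7.04 to 8.45, with 17 eyes below and 7 above. In 6 eyes COL4A1 was at or above the upper edge of its gap while COL1A1 was below the upper edge of its own. Of these, 5 were lens eyes: birds 2 and 4 of the +15 D, 6 hours condition, birds 2 and 4 of the -15 D, 3 days condition and bird 2 of the +15 D, 3 days condition. The other was the control eye of bird 4 in the -15 D, 3 days condition. In the lens eyes other than that of bird 2 of the +15 D, 6 hours condition COL1A1 was inside its gap, at 7.85, 7.88, 6.92 and 6.97. Some lens eyes had COL1A1 above its gap and COL4A1 inside its own, though above the COL4A1 median of 6.49 over 48 eyes. Both gaps were found from the control values themselves, so these groups of eyes are a description. Bird 4 of the -15 D, 6 hours condition had COL1A1 at 9.69 and COL4A1 at 8.32. Bird 1 of the +15 D, 6 hours condition had COL1A1 at 9.40 and COL4A1 at 7.99. In the lens eye of bird 2 of the +15 D, 6 hours condition COL4A1 stood at 9.31, against 5.96 for COL1A1, the lowest COL1A1 value of all eyes. COL18A1, a basement membrane collagen of vessels and epithelia, read 10.53 and 10.08 in the lens eyes of birds 2 and 4 of the +15 D, 6 hours condition and 10.48 and 10.68 in those of birds 2 and 4 of the -15 D, 3 days condition, within an overall range of 8.95 to 11.1.

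**Figure D2:**
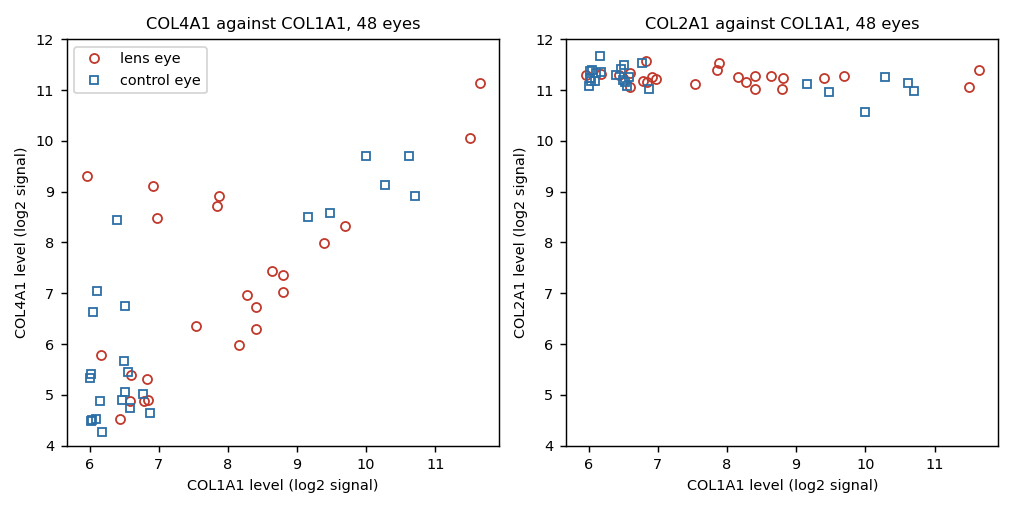
Log2 level of COL4A1 and of COL2A1 (y axes) against log2 level of COL1A1 (x axes), 1 point per eye for 48 eyes, lens eyes in red and control eyes in blue. COL4A1 is at 7.99 or above in every eye with COL1A1 at or above 9.16. A few eyes have high COL4A1 without the highest COL1A1, and COL2A1 stays between 10.6 and 11.7 throughout.

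The fibroblast, vessel and blood marker lists were highest in the same control eyes as these collagens. In lens eyes the means of these lists followed COL1A1 more than COL4A1. The endothelial genes VWF and CDH5 and the fibroblast gene DCN were high with COL4A1 too, but not all endothelial or fibroblast genes were. The 6 control eyes highest in COL1A1 were the same 6 that were highest in the choroid and sclera fibroblast list, the vessel and smooth muscle list and the blood list, and 5 of them were among the top 6 for pigment epithelium markers. None was among the top 6 for photoreceptor or Müller glia markers. Among lens eyes the top 6 for COL1A1 shared 6 eyes with the fibroblast list and 5 with the vessel list. They shared 5 each with the blood and pigment epithelium lists, and 2 each with the photoreceptor and Müller glia lists. The top 6 lens eyes for COL4A1 shared 2 eyes each with the fibroblast and vessel lists and with the top 6 for COL1A1. They shared 3 each with the blood and pigment epithelium lists. Shared eyes were not counted over all genes, so these counts are a description. OGN and POSTN, matrix genes of fibroblasts, were above background in 12 of 24 lens eyes and 6 of 24 control eyes. LUM was above it in 5 lens and 5 control eyes, TWIST1 in 5 lens and 6 control eyes, and DCN in 22 lens and 16 control eyes. Of the 19 fibroblast markers measured, LUM, TWIST1, TWIST2, FOXC1 and TBX18 had a mean below background. The endothelial gene VWF was above background in all eyes, with a range of 4.79 to 11.04 in lens eyes and 4.80 to 10.1 in control eyes. In the 5 lens eyes high in COL4A1 but not COL1A1 by their gaps, VWF read 8.22 to 9.79 and CDH5 8.61 to 10.08. The medians over 48 eyes were 6.95 for VWF and 7.19 for CDH5. Other endothelial genes lay closer to their medians in these 5 eyes. TIE1 read 6.19 to 6.69 (median 6.19), TEK 5.29 to 5.82 (5.18) and PECAM1 7.26 to 7.89 (7.45). Of the fibroblast genes, DCN read 6.90 to 8.09 there, above its median of 6.09, and OGN lay on both sides of its median. These eyes therefore did not differ in endothelial genes alone, nor in all of them. In the lens eye with the most COL1A1, bird 3 of the -15 D, 6 hours condition, DCN stood at 11.12 and VWF at 10.97. The part of these markers in the spread of collagens was not tested, and in bulk tissue fewer cells of a type cannot be told apart from less RNA per cell.

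The spread did not rest on that 1 eye for the 5 widest genes. Without it the SD was 1.91 for COL3A1, 1.79 for COL4A1 and 1.53 for COL1A1, and 5 of 41 collagens (12.2%) kept an SD above 1, against 113 of 13009 genes (0.869%). COL6A2, COL14A1 and COL6A3 were then below 1, at 0.98, 0.94 and 0.93. The 5 widest genes were nearly as variable in lens eyes as in control eyes: the SD of COL1A1 was 1.52 over 24 lens eyes and 1.69 over 24 control eyes, and that of COL3A1 1.71 over lens eyes and 2.13 over control eyes. Not all probe sets of a gene showed the spread. For COL3A1, with 6 probe sets, those with means of 9.57, 8.50 and 6.90 had SDs of 1.97, 2.04 and 1.55, while those with means of 6.20 and 5.69 had SDs of 0.21 and 0.20. COL1A1, COL6A2 and COL6A3 had 1, 2 and 2 probe sets, so the wide reading of each rests on a single one. Of the 3 probe sets of COL4A1, those with means of 4.33 and 3.42, below background, had SDs of 0.16 and 0.13. The wide reading of COL4A1 therefore rests on 1 probe set too. With the mean of all probe sets as a gene's value, 2 collagens, COL3A1 and COL1A1, had an SD above 1.

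Partner chains were set against each other in control eyes, 1 eye per bird, for 14 pairs that share a trimer, a fibril or a promoter region. Where levels fell into separate clusters the correlation was taken within a cluster, which gave 19 correlations with permutation p values adjusted over them. No r was computed for genes that are not partners, so none is read as particular to partner chains. Below the COL4A1 gap the endothelial gene VWF was also higher where COL4A1 was higher. It read 5.38 in the control eye with COL4A1 at 4.26 and 7.41 in the control eye with COL4A1 at 7.04. This relation was not tested. COL4A1 and COL4A2, which lie next to each other on chromosome 1 in the GRCg7b gene table, varied together within both clusters. Pearson's r was 0.91 in the 17 eyes below the COL4A1 gap (permutation p = 2e-05, adjusted p = 0.00019; Spearman's rho 0.88, p = 1e-05, adjusted p = 9.5e-05, the smallest p the permutations can give being 1e-05) and 0.82 without the 2 eyes farthest from the median. In the 7 eyes above the gap r was 0.91 (exact permutation p = 0.00159, adjusted p = 0.0101; rho 0.93, p = 0.00675, adjusted p = 0.032). COL8A1 and COL8A2, the chains of type VIII, had r = 0.89 over 24 control eyes (permutation p = 1e-05, adjusted p = 0.00019; rho 0.86, p = 1e-05, adjusted p = 9.5e-05), 0.87 without the 2 farthest eyes, 0.94 at 3 days and 0.87 at 6 hours.

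COL1A1 and COL1A2, which make up the type I trimer, had r = 0.97 in the 6 control eyes above the gap (exact permutation p = 0.00278, adjusted p = 0.0132; rho 0.94, p = 0.0167, adjusted p = 0.0595). In the 18 eyes below it r was 0.52 (permutation p = 0.0281, adjusted p = 0.0763; rho 0.52, p = 0.03, adjusted p = 0.0734), which did not pass the threshold. COL1A2 and COL3A1, which share fibrils, had r = 0.92 in the 6 eyes above the COL1A2 gap (exact permutation p = 0.00972, adjusted p = 0.0308; rho 0.83, p = 0.0583, adjusted p = 0.111) and 0.44 in the 18 below it (permutation p = 0.0656, adjusted p = 0.137; rho 0.49, p = 0.0412, adjusted p = 0.087). COL5A1 and COL5A2 had r = 0.61 over 21 eyes (permutation p = 0.00422, adjusted p = 0.016; rho 0.60, p = 0.00499, adjusted p = 0.0316), with 0.89 at 3 days and 0.28 at 6 hours. Cartilage-type partners gave low values: r was 0.19 for COL2A1 with COL9A1 (permutation p = 0.366, adjusted p = 0.434; rho 0.26, p = 0.223, adjusted p = 0.303) and 0.20 for COL2A1 with COL11A1 (permutation p = 0.346, adjusted p = 0.434; rho 0.34, p = 0.105, adjusted p = 0.166). Partners within type VI were as low in the 18 control eyes below the COL6A2 gap: r was 0.17 for COL6A1 with COL6A2 (permutation p = 0.506, adjusted p = 0.506; rho 0.15, p = 0.54, adjusted p = 0.57) and 0.20 for COL6A2 with COL6A3 (permutation p = 0.414, adjusted p = 0.437; rho 0.12, p = 0.62, adjusted p = 0.62). For the second pair r was -0.04 without the 2 eyes farthest from the median. It was 0.02 in 9 eyes at 3 days and 0.88 in 9 eyes at 6 hours, and the difference between the times was not tested. In the 6 eyes above the COL6A2 gap, r was 0.72 for COL6A1 with COL6A2 (exact permutation p = 0.0889, adjusted p = 0.141). There it was 0.49 for COL6A2 with COL6A3 (exact permutation p = 0.331, adjusted p = 0.434). The neighbouring type IV genes COL4A3 and COL4A4 had r = 0.37 over 24 control eyes (permutation adjusted p = 0.137, rho 0.48, adjusted p = 0.0595). COL4A5 and COL4A6, also neighbours, had r = 0.36 (permutation adjusted p = 0.141, rho 0.45, adjusted p = 0.0734). Neither of these pairs passed the threshold. In all, 6 of the 19 correlations passed the threshold by Pearson's r, 4 of them by Spearman's rho as well.

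The lens comparisons set each bird's lens eye against its control eye with limma, with the bird as a block and p values adjusted by Benjamini-Hochberg over 38382 probe sets. No collagen passed an adjusted p of 0.05 in any of the 4 conditions. Under a -15 D lens for 6 hours limma called 0 of 41 collagens, beside 0.0391% of all probe sets. Under +15 D for 6 hours it called 0 of 41 beside 0.00782%, under -15 D for 3 days 0 of 41 beside 0.0703%, and under +15 D for 3 days 0 of 41 beside 0.00521%. Both shares are near 0, so nothing about the collagens is read from these counts. At an unadjusted p under 0.05 the collagens numbered 1, 1, 0 and 0 of 41 in these 4 conditions, against 10.1%, 7.51%, 14.2% and 3.92% of probe sets. In no condition did the 6 lens eyes and the 6 control eyes of any collagen fail to overlap. Overlap was not counted over all genes, so nothing about the collagens is read from it. The 95% interval of a collagen's mean difference reached a median of 0.308 to either side, against 0.162 over all genes. That interval is not adjusted for the 38382 probe sets, so a difference had to be larger still to be called.

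**Figure D3:**
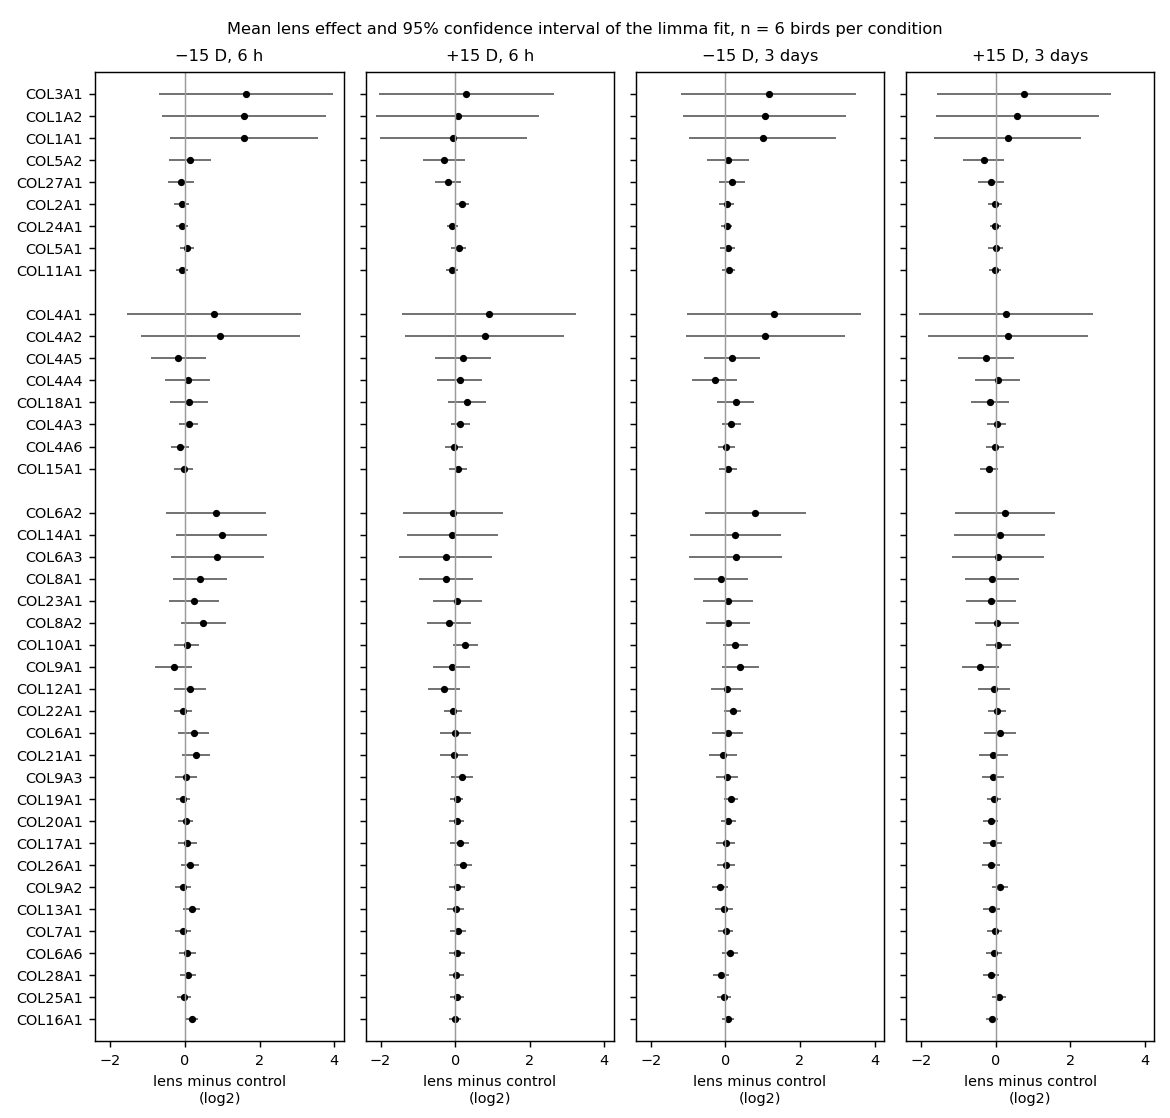
Mean lens minus control difference in log2 (x axis) with limma's 95% confidence interval for the 41 collagen genes (rows) in the 4 conditions (panels), 6 birds each. Intervals of COL3A1, COL4A1, COL1A2, COL4A2 and COL1A1 are several log2 units wide, and no gene passed an adjusted p of 0.05.

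After 6 hours of a -15 D lens COL1A1 averaged 8.17 ± 2.16 in lens eyes and 6.59 ± 1.26 in control eyes (SD, n = 6 birds). Its difference in birds 1 to 6 was 2.25, 0.12, 5.62, 3.54, -2.72 and 0.68. That is 5 birds above 0 and 1 well below, and the mean of 1.58 had an interval from -0.37 to 3.53 (limma adjusted p = 0.608). COL3A1 differed by 3.84, -0.04, 5.92, 3.89, -4.32 and 0.53, with a mean of 1.64 (-0.68 to 3.95, limma adjusted p = 0.668). COL4A1 differed by 1.55, -0.83, 6.66, 3.45, -3.99 and -2.16, with a mean of 0.78 and 3 of 6 birds above 0 (limma adjusted p = 0.860). The value of 6.66 in bird 3 is taken against a control eye at 4.49, below background, and so is uncertain in size. Beside these, 18 of 19 fibroblast markers and 13 of 15 vessel markers had a mean difference above 0 in this condition, with medians of 0.35 and 0.64, against 54.8% of all genes above 0, and none of them passed the threshold. By bird the mean of the fibroblast list was higher in the lens eye in 4 of 6 birds (0.64 ± 1.39) and that of the vessel list in 3 of 6 (0.57 ± 1.57). All 14 pigment epithelium markers and 2 of 17 lens and anterior segment markers had a mean above 0, with medians of 0.23 and -1.01. The part of these markers in the collagen values was not tested.

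The lowest p among collagens in this condition belonged to COL16A1, a fibril-associated chain with little spread. It read 7.07, 7.09, 6.98, 6.96, 7.20 and 7.09 in lens eyes, and 6.99, 6.80, 6.95, 6.96, 6.82 and 6.77 in control eyes. The lens eye was above its control in 5 of 6 birds, by a mean of 0.18 ± 0.17 (interval 0.05 to 0.32, limma adjusted p = 0.289). Dimmer probe sets of COL16A1, with means of 5.26 and 4.24, had r = 0.33 and 0.14 with the one used over the 48 eyes. After 3 days of +15 D the same gene averaged 6.89 ± 0.11 in lens eyes and 7.002 ± 0.17 in control eyes. COL13A1, a membrane-spanning collagen, averaged 0.18 ± 0.26 above control (limma adjusted p = 0.559) and COL8A2 0.50 ± 0.68 (limma adjusted p = 0.574), with 1.72 in bird 3. COL18A1 differed by 1.58 in bird 3 and by -0.37 to 0.08 in the other 5 birds.

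After 6 hours of a +15 D lens the large collagens pointed both ways. COL1A1 differed by -0.60, -4.32, 2.60, 1.85, 0.08 and 0.06, with lens eyes at 7.54 ± 1.31 and control eyes at 7.598 ± 1.99 and a mean difference of -0.05 (-2.004 to 1.89, limma adjusted p = 0.992). COL4A1 differed by -1.72, 0.18, 2.93, 3.38, 0.33 and 0.29, a mean of 0.90 with 5 of 6 birds above 0 (limma adjusted p = 0.861). COL12A1, which coats type I fibrils, averaged -0.31 ± 0.36 (limma adjusted p = 0.707). COL2A1 had the lowest p. It read 11.24, 11.31, 11.28, 11.40, 11.06 and 11.58 in lens eyes, and 10.56, 11.26, 11.18, 11.08, 11.16 and 11.54 in control eyes. The mean difference was 0.18 ± 0.28 (0.01 to 0.35, limma adjusted p = 0.661), and the control eye of bird 1 was the lowest of all 48 eyes. COL26A1 averaged 0.21 ± 0.35 above control (limma adjusted p = 0.662) and COL10A1 0.26 ± 0.62 (limma adjusted p = 0.681).

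After 3 days of a -15 D lens 34 of 41 collagens had a mean difference above 0 (82.9%), against 60.2% of all genes. All 9 fibrillar genes and 7 of 8 basement membrane genes were among them. The sizes were small, with a median of 0.067 over collagens and 0.027 over all genes, and none passed the test. COL1A1 averaged 7.86 ± 0.93 in lens eyes and 6.86 ± 1.29 in control eyes, and its difference was -0.68, 1.78, 0.42, 0.53, 1.69 and 2.22 in birds 1 to 6. The mean was 0.99 (-0.96 to 2.94, limma adjusted p = 0.705), with 5 of 6 birds above 0. COL4A1 differed by -1.21, 4.38, 0.62, 0.67, 1.09 and 2.28, a mean of 1.31 (-1.01 to 3.62, limma adjusted p = 0.664), and the control eye of bird 3, at 4.26, was below background. In bird 1, the exception for both genes, the control eye was among the 6 highest control eyes.

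COL19A1, a fibril-associated chain, had the lowest p of this condition, with a difference of 0.40, 0.34, 0.08, -0.14, 0.20 and 0.06 and a mean of 0.16 (limma adjusted p = 0.363). Dimmer probe sets of COL19A1, with means of 6.09 and 5.07, had r = 0.09 and 0.41 with the one used over the 48 eyes. COL22A1 averaged 8.03 ± 0.09 in lens eyes and 7.84 ± 0.24 in control eyes (difference 0.19 ± 0.21, limma adjusted p = 0.409). COL10A1, known from hypertrophic cartilage, differed by 0.00 to 0.38 in the 6 birds, a mean of 0.26 ± 0.15 (limma adjusted p = 0.454). In this condition 15 of 19 fibroblast markers and 14 of 15 vessel markers had a mean difference above 0, with medians of 0.26 and 0.11. All 9 striated muscle markers did too, with a median of 1.44, 9 of 9 at an unadjusted p under 0.05 and none past the adjusted threshold. Their high eyes were the lens eyes of birds 5 and 6, which had COL1A1 differences of 1.69 and 2.22, and the part of these markers was not tested. The ratio of 3' to 5' actin probe sets, which reads RNA quality, was higher in the lens eye of all 6 birds, by 0.32 ± 0.14 log2. The same ratio for GAPDH was higher in all 6 too, by 0.10 ± 0.07. Under -15 D for 6 hours the actin ratio was higher in the lens eye of 0 birds, at -0.16 ± 0.20. The GAPDH ratio was higher there in 4 birds, at 0.01 ± 0.06. The part of these ratios in the collagen values was not tested.

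After 3 days of a +15 D lens 16 of 41 collagens had a mean difference above 0 (39.0%), against 47.8% of all genes, and the median was -0.015. COL1A1 averaged 8.28 ± 1.72 in lens eyes and 7.96 ± 2.10 in control eyes, and differed by 4.95, 0.10, 1.04, -3.77, -2.30 and 1.895 (mean 0.32, -1.63 to 2.27, limma adjusted p = 1). COL4A1 differed by 4.61, 3.85, 0.68, -4.81, -2.20 and -0.45. For COL1A1 the large values came from bird 1, through its lens eye, and birds 4 and 5, through their control eyes, and for COL4A1 the lens eye of bird 2 added a 4th. COL9A1, a chain of the type II fibril coat, had the lowest p, reading 8.62, 8.41, 7.84, 7.78, 8.45 and 7.88 in lens eyes, and 8.38, 8.23, 7.97, 8.83, 9.22 and 8.81 in control eyes. Its mean difference was -0.41 ± 0.58 (-0.88 to 0.06, limma adjusted p = 1). COL15A1 averaged -0.19 ± 0.38 and COL16A1 -0.11 ± 0.23 (limma adjusted p = 1 for both).

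The remaining chains followed by bird filled in the same picture. COL1A2, the second chain of type I, differed by 2.83, -0.25, 6.11, 3.64, -3.09 and 0.28 under -15 D for 6 hours and by 5.68, 0.68, 1.63, -4.38, -2.26 and 2.14 under +15 D for 3 days. Its mean in the 4 conditions, in the order given at the start, was 1.59, 0.06, 1.05 and 0.58 (limma adjusted p = 0.653, 0.992, 0.723 and 1). COL4A2 had means of 0.95, 0.79, 1.07 and 0.33 (limma adjusted p = 0.803, 0.867, 0.708 and 1). Both genes had 1 or more birds on each side of 0 in every condition.

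COL18A1 differed by -0.14, 0.94, 0.13, 0.82, 0.12 and 0.05 under +15 D for 6 hours, a mean of 0.32 ± 0.44 (limma adjusted p = 0.742), and by -0.22, 1.21, 0.20, 0.42, -0.05 and 0.06 under -15 D for 3 days, a mean of 0.27 ± 0.51 (limma adjusted p = 0.665). The largest of these were in birds 2 and 4, lens eyes whose COL4A1 was at or above the upper edge of its gap while COL1A1 was below the upper edge of its own. COL12A1, the other fibril coat chain followed by bird, differed by 0.01, -0.22, 1.52, 0.38, -0.61 and -0.21 under -15 D for 6 hours and by 0.92, 0.11, -0.21, -0.79, -0.29 and -0.08 under +15 D for 3 days. COL9A1 differed by -0.20, -0.10, 0.87, -1.06, -1.19 and -0.15 under -15 D for 6 hours and by 0.63, 1.56, 0.04, -0.14, 0.19 and 0.09 under -15 D for 3 days, so 5 of 6 birds were above 0 at 3 days and 1 of 6 at 6 hours. COL6A2, the widest gene among the other types, read 10.26 in the lens eye of bird 3 under -15 D for 6 hours and 6.11 to 8.34 in the other 5 lens eyes, against 6.12 to 7.73 in the 6 control eyes.

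**Figure D4:**
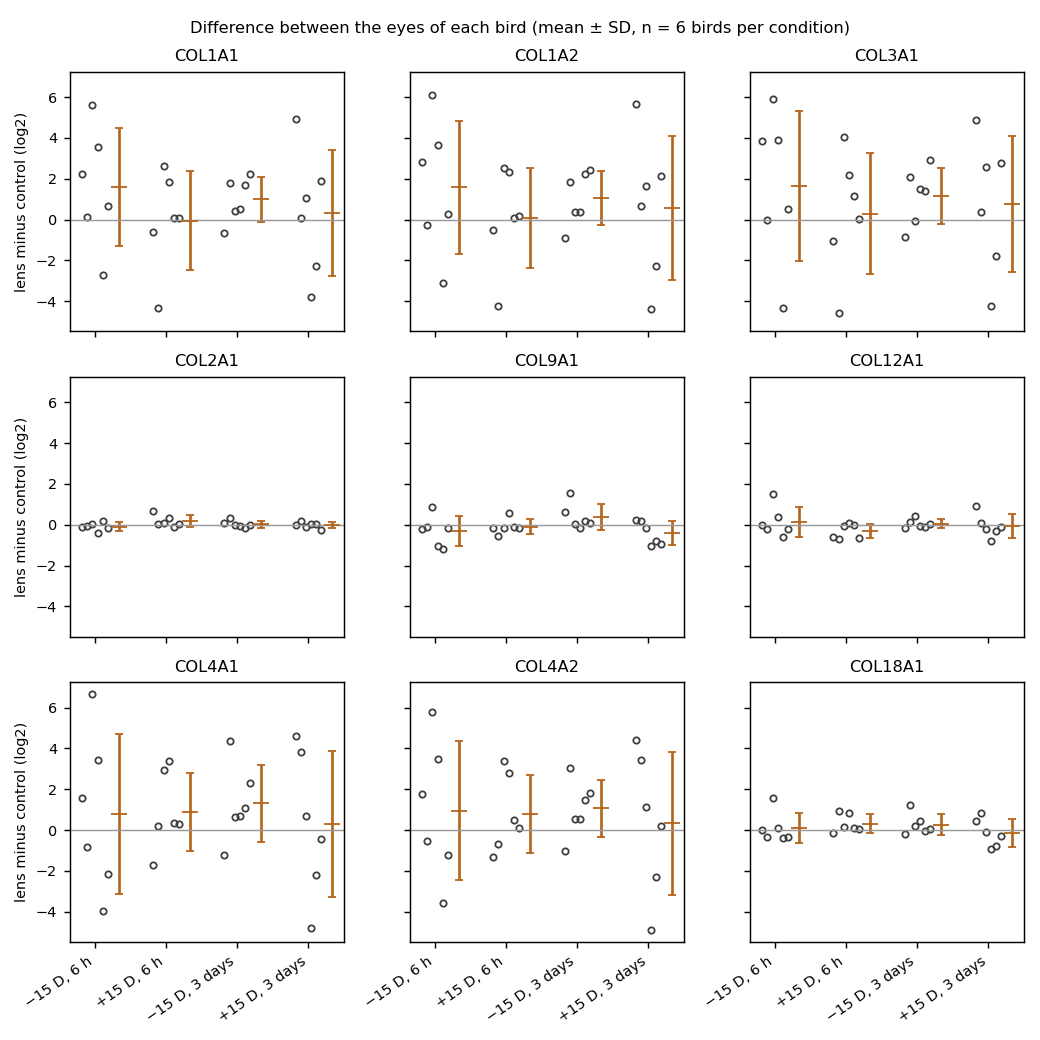
Lens minus control difference in log2 (y axes) in each of 6 birds (points) for 9 collagen genes (panels) in the 4 conditions, with mean and SD. Single birds reach 5 to 7 log2 units above 0 and 4 to 5 below it for COL1A1, COL1A2, COL3A1, COL4A1 and COL4A2, while COL2A1 stays within 1 unit of 0.

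Differences between lens effects were tested as interaction contrasts of the same fit. At 6 hours, -15 D minus +15 D, limma called 0 of 41 collagens beside 0.0% of probe sets (at an unadjusted p under 0.05, 1 of 41 beside 3.55%). At 3 days, -15 D minus +15 D, it called 0 of 41 beside 0.0% (at an unadjusted p under 0.05, 1 of 41 beside 9.26%). The collagen of lowest p at 3 days was COL9A1, with a lens effect of 0.39 under -15 D and -0.41 under +15 D. The difference of 0.81 had an interval from 0.14 to 1.47 (limma adjusted p = 0.458). For -15 D, 3 days minus 6 hours, limma called 0 of 41 beside 0.0104% (at an unadjusted p under 0.05, 1 of 41 beside 10.2%). COL9A1 again had the lowest p there, with an effect of 0.39 at 3 days and -0.31 at 6 hours (difference 0.70, limma adjusted p = 0.468). The COL9A1 values hold for its brightest probe set. Its dimmer ones, with means of 5.44 and 3.44, had r = 0.03 and 0.36 with it over the 48 eyes. For +15 D, 3 days minus 6 hours, it called 0 of 41 beside 0.0% (at an unadjusted p under 0.05, 1 of 41 beside 3.47%).

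The mean of the 4 lens effects, a contrast added after the data were seen, used all 24 birds. It called 0 of 41 collagens beside 0.373% of probe sets, and 1 of 41 beside 13.5% at an unadjusted p under 0.05. COL1A1 was higher in the lens eye in 18 of 24 birds, COL1A2 and COL6A3 in 17, and COL3A1, COL4A1 and COL4A2 in 16. Birds were not counted in this way over all genes, so nothing about the collagens is read from these counts. The mean difference was 0.71 for COL1A1 (-0.26 to 1.68, limma adjusted p = 0.537), 0.96 for COL3A1 (-0.20 to 2.12, limma adjusted p = 0.468) and 0.82 for COL4A1 (-0.34 to 1.97, limma adjusted p = 0.551). These intervals reach past a doubling and also hold 0. COL2A1 was tighter, at 0.03 (-0.06 to 0.11, limma adjusted p = 0.811). COL10A1 had the lowest p, with 18 of 24 birds above 0 and a mean of 0.16 (limma adjusted p = 0.360). Medians over eyes differed in the same sense as the means: COL1A1 stood at 7.86 in lens eyes and 6.50 in control eyes, COL3A1 at 10.03 in lens eyes and 8.002 in control eyes, and COL4A1 at 6.99 in lens eyes and 5.43 in control eyes. These medians do not use the pairing within birds and were not tested, so their size is not read as a lens effect. Of all genes, 54.9% had a mean lens effect above 0, and 28 of 41 collagens did (68.3%). So did 17 of 19 fibroblast, 12 of 15 vessel and 8 of 8 blood markers, and 4 of 17 lens and anterior segment markers. The part of these markers was not tested.

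Control eyes were compared between 3 days and 6 hours, 12 birds at each time, with the lens power of the other eye as a term. Age at collection, day and duration of the partner eye's lens cannot be told apart here. Limma called 0 of 41 collagens beside 1.95% of probe sets. At an unadjusted p under 0.05 there were 5 of 41 collagens (12.2%), against 13.9% of probe sets and 16.4% of all genes. Of the 5, 3 were fibrillar chains with a lower mean at 3 days. The share of collagens was no higher than that of all genes, so nothing about class or direction is read from this count. COL27A1, a fibrillar collagen of cartilage, had a lowest, median and highest level of 5.36, 5.59 and 5.92 at 3 days, and of 5.33, 5.97 and 6.23 at 6 hours. Its mean was 5.60 ± 0.21 at 3 days and 5.92 ± 0.30 at 6 hours (SD, n = 12 each), a difference of -0.32 (-0.53 to -0.10, limma adjusted p = 0.132). The difference was -0.39 among birds with a -15 D lens and -0.25 among birds with a +15 D lens. Leaving out bird 3 of the +15 D, 6 hours condition, whose control eye had the lowest COL27A1 level at 6 hours, gave -0.37 with a limma adjusted p of 0.0402, which was past the threshold.

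COL11A1, the type XI chain inside thin fibrils, averaged 9.84 ± 0.10 at 3 days and 10.005 ± 0.21 at 6 hours (difference -0.17, limma adjusted p = 0.237). Its probe sets disagreed over the 48 eyes. One nearly as bright, with a mean of 9.87 against 9.91, had an SD of 0.26 and r = -0.03 with the one used. Another, with a mean of 9.10, had r = 0.85 with it. The COL11A1 values given here hold for the brightest probe set. COL24A1 averaged 10.42 ± 0.13 at 3 days and 10.58 ± 0.19 at 6 hours (difference -0.16, limma adjusted p = 0.258). A second, dimmer probe set of COL24A1, which the member rule does not use, differed by -0.24 with a limma adjusted p of 0.0405, the only 1 of the 121 collagen probe sets called in any comparison. COL22A1 averaged 7.76 ± 0.27 at 3 days and 7.51 ± 0.32 at 6 hours (limma adjusted p = 0.288), and COL15A1 5.32 ± 0.29 at 3 days and 5.14 ± 0.15 at 6 hours (limma adjusted p = 0.302). COL15A1 differed by 0.02 among -15 D birds and 0.34 among +15 D birds. The widely varying genes gave wide intervals: COL1A1 averaged 7.41 ± 1.76 at 3 days and 7.09 ± 1.67 at 6 hours (difference 0.32, -0.98 to 1.62, limma adjusted p = 0.889), and COL4A1 6.38 ± 2.00 at 3 days and 6.31 ± 1.87 at 6 hours. COL2A1 averaged 11.20 ± 0.17 at 3 days and 11.24 ± 0.28 at 6 hours.

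**Figure D5:**
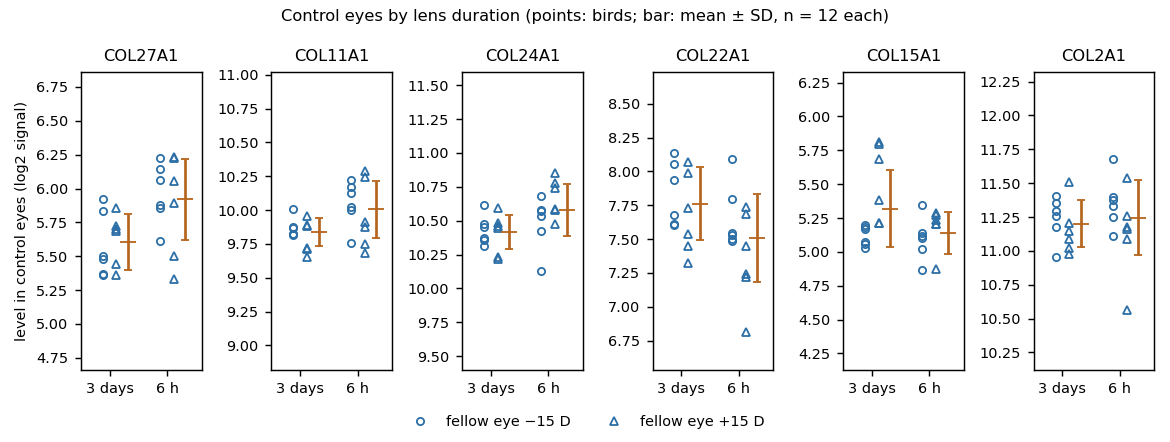
Log2 level (y axes) of 6 collagen genes in control eyes at 3 days (left) and 6 hours (right), 12 birds each, circles for birds with a -15 D lens and triangles for birds with a +15 D lens on the other eye, with mean and SD. COL27A1, COL11A1 and COL24A1 have lower means at 3 days, with overlapping eyes, and none passed an adjusted p of 0.05.

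Genes that make, process, bind or degrade collagen were read through 5 lists. None of their measured members (21 for chain synthesis, 20 for processing and crosslinking, 7 receptors, 18 for breakdown and 20 basement membrane partners) passed the test in any of the 4 lens conditions, in the mean of the lens effects or in control eyes over time. With 0.00521% to 0.0703% of all probe sets called in the lens conditions, 0.373% in the mean of the lens effects and 1.95% in control eyes, nothing about the lists is read from these counts. COLGALT1, which adds galactose to collagen hydroxylysine, came closest for synthesis: its mean lens effect over 24 birds was 0.14 (limma adjusted p = 0.0525). In the single conditions it was 0.04 under -15 D for 6 hours (limma adjusted p = 0.879), 0.20 under +15 D for 6 hours (0.660), 0.16 under -15 D for 3 days (0.238) and 0.16 under +15 D for 3 days (1). For processing, TLL1, a protease of the BMP1 family that trims procollagen, had a mean lens effect of -0.14 (limma adjusted p = 0.0661) and a control-eye difference of 0.28 (limma adjusted p = 0.0586). EPYC, a small proteoglycan of cartilage, averaged -0.66 under +15 D for 6 hours (limma adjusted p = 0.477).

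Among receptors DDR1, a kinase activated by collagen, averaged 0.19 under -15 D for 3 days (limma adjusted p = 0.137), and all 7 receptors had a mean above 0 there with a median of 0.13, where 60.2% of all genes did. For breakdown the lowest p under -15 D for 3 days was that of MMP24, a membrane-type protease, at 0.14 (limma adjusted p = 0.286), and under -15 D for 6 hours that of RECK, an inhibitor of such proteases, at -0.14 (limma adjusted p = 0.463). MMP1, MMP3, MMP10, MMP13, MMP27 and FAP had means below background. Of the 20 basement membrane partners, laminins, nidogens and their like, 18 had a mean above 0 under -15 D for 6 hours (median 0.12) and 8 under +15 D for 6 hours (median -0.01), where 54.8% and 47.6% of all genes did. By bird the mean of this list under -15 D for 6 hours was higher in the lens eye in 3 of 6 birds, by 0.22 ± 0.71 on average, with the highest eye, at 8.29, being the lens eye of bird 3. Their lowest p under -15 D for 6 hours was that of AGRN, a heparan sulfate proteoglycan, at 0.17 (limma adjusted p = 0.646). The processing list and the partners shared their highest control eyes with COL1A1: the top 6 control eyes for COL1A1 were the top 6 for the processing list and for the basement membrane partners. Shared eyes were not counted over all genes, so this too is a description.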

How the data were processed

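Signals were deposited on the log2 scale, made by the authors with RMA and Partek, per the submitters' processing notes, with neither role nor version given in the sources used here. RMA gives all arrays a like distribution, and it narrows differences where signals are dim. Precision is limited by the number of arrays.

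The 153 control and reporter probe sets of 38535 were left out, leaving 38382 tested. The annotation gave 1 symbol for 27168, several for 177 and none for 11037; none was named from several. All 41 members matched a RefSeq symbol and had 121 probe sets.

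Limma 3.58.1 in R 4.3.3 fitted all 48 arrays with bird as a fixed block (20 residual degrees of freedom, two-sided, Benjamini-Hochberg, threshold 0.05). Control eyes were fitted apart, with lens power as a term. Per the labels, both eyes of a number come from the same bird; deviations from group means correlated above 0.1 in 19 of 24 birds (median 0.43, range -0.42 to 0.89). P-values measure spread between these birds. Python 3.11.15, numpy 2.4.6, pandas 2.3.3, scipy 1.17.1 and matplotlib 3.10.9 gave the rest. The fits were tested on simulated data whose eyes varied far less than those of the widest collagens, so that test does not cover these genes.

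Members and lists were chosen with earlier results of these data known. All members are named with their mean. Values per eye or bird follow for 9 chains (COL1A1, COL1A2, COL2A1, COL3A1, COL4A1, COL4A2, COL9A1, COL12A1, COL18A1), for the 3 lowest p in a comparison with no call and for the widest gene of each class; some of these are given by condition mean or range alone. List genes are named by call or among the 3 lowest p. Alternatives covered centring, probe set choice, a background filter, array weights, the block, the lens power term and each bird left out.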

Additional observations from a re-analysis of the deposited data

Results flagged for a closer look

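Of 62 groups of 6 values examined for the named genes, 2 held a value far from the other 5, by Dixon's test at the 95% level, and chance alone gives about 1 in 20. The lens minus control difference of COL18A1 after 6 hours of a -15 D lens reached 1.58 in bird 3, with the other birds at -0.37 to 0.08. The level of COL11A1 in the control eye of bird 2 of the -15 D, 3 days condition reached 10.01, with the other control eyes of that condition at 9.82 to 9.88. No other of the 62 groups was flagged. The flags are not a full list of outlying values of these genes. COL1A1 in control eyes of the -15 D, 6 hours condition is not among the 2. It read 9.16 in bird 5 and 6.02 to 6.16 in the other 5.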

How the results depend on the processing

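Of 187 alternative counts of collagens called, over all 10 comparisons, 186 were 0. The exception was the control-eye comparison without bird 3 of the +15 D, 6 hours condition, where the count was 1: COL27A1, -0.37, limma adjusted p = 0.0402. Leaving out each bird in turn gave 0 to 1 there, and COL27A1 had adjusted p values up to 0.924, among +15 D birds alone. Without the bird as a block the count of collagens was 0 in every lens comparison. In control eyes, a term for replicate number, which is shared by different birds, also gave a count of 0. Neither change altered a collagen call. Over all probe sets the lens counts did depend on the bird block: -15 D for 3 days gave 0 without it and 27 with it. The median collagen difference kept to 0.05 to 0.10 under -15 D for 3 days and spanned -0.12 to 0.04 under +15 D for 3 days. The 8 collagens with an SD above 1 became 2 with the mean of all probe sets of a gene and 5 without the 4 birds whose eyes differed most; leaving out each bird in turn gave 5 to 8, with 5 without bird 3 of the -15 D, 6 hours condition. These alternatives for the spread were chosen after the data were seen. COL6A6 had a mean below background, and COL28A1 and COL26A1 stood just above it, so their differences are the least certain in size.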
